A study of Homo sapiens with 12 samples.

Results

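The heat shock proteins and the DNAJ co-chaperones were examined as a set of 71 protein-coding genes, of 19708 in the count table. Members were taken by a rule on symbols, as the genes whose names begin with HSPA, HSPB, HSPH, HSP90A, HSPD, HSPE or DNAJ. The choice was made with earlier results of these data known. The stress proteins of the endoplasmic reticulum HSPA5, DNAJB9 and DNAJC3 and the unrelated HSPBAP1 were left out. By the textbook location of their proteins, 39 members were assigned to the cytosol, 9 to mitochondria and 23 to neither. The rule also takes in HSPBP1, which is no heat shock protein but a nucleotide exchange factor of HSP70.

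The libraries came from NCI-H520, a line of human lung squamous cell carcinoma, and the study asked how a chimeric RNA of the retrotransposon L1 and the gene FGGY (L1-FGGY) and 2 inhibitors alter its transcriptome. The 12 libraries fall by their labels into 4 groups of 3. In OV-L1-FGGY the chimera was expressed from a lentivirus, and OV-CTRL is the control line. OV-L1-FGGY cells received 0.2% DMSO or 10 μM ML355, an inhibitor of 12-lipoxygenase. A further group is labelled as OV-L1-FGGY with 450 μM NVR, a reverse transcriptase inhibitor, and the fourth is OV-CTRL with 0.2% DMSO. The FGGY level of the group labelled NVR goes against that label, and its samples are called the NVR-labelled libraries. In all groups the medium was changed 5 h after seeding. The labels name no clone, passage or day and do not say that replicates were separate cultures, so that p-values measure the spread between these libraries only.

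Heat shock proteins bind unfolded polypeptides and keep them from aggregating. HSP70 works in an ATP-driven cycle in which J proteins (the DNAJ genes) deliver the substrate and start ATP hydrolysis, while HSP110 and other exchange factors release the nucleotide. HSP90 then matures selected clients such as kinases and steroid receptors, small heat shock proteins hold aggregating proteins without ATP, and mitochondria keep an HSP70 (HSPA9) and a chaperonin (HSPD1 with HSPE1) of their own. Under proteotoxic stress the transcription factor HSF1 raises the inducible genes among them, whereas HSPA8 and HSP90AB1 are abundant in unstressed cells.

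Total counts per library ranged from 16242082 to 27004768. The libraries fell into 2 sets that do not follow the labels in full. FGGY, whose reads include those of the construct, stood at 267 to 362 CPM (a gene's counts relative to the total of its library, scaled by the trimmed mean of M values, TMM) in the 6 libraries of OV-L1-FGGY treated with DMSO or ML355, but at 3.81 to 4.83 in those labelled NVR and 2.99 to 3.83 in OV-CTRL. SOX2, a marker of squamous carcinoma, had 0 counts in the first set and 128 to 446 in the second, while LUM, a gene of fibroblasts, had 1165 to 4327 counts in the first set and 0 to 2 in the second. Squamous markers did not all go 1 way. TP63 had 1 to 16 counts in the first set and 34 to 108 in the second. KRT14 had 4 to 63 and 0, and PERP 6097 to 19210 and 2702 to 4397. Over 5 fibroblast markers, of which 3, 3, 1 and 1 had at least 10 counts in each library of a group and COL1A2 was at or near 0, the summed level was 336 to 350 CPM in OV-L1-FGGY DMSO, 111 to 121 with ML355, 19.6 to 22.1 in the NVR-labelled libraries and 19.8 to 25.2 in OV-CTRL. The 8 squamous markers summed to 965 to 1057, 316 to 349, 159.7 to 180.0 and 129 to 131 CPM in the same order, most of it from PERP, with KRT6A and DSG3 at 0 in every library. Endothelial and leukocyte markers summed to at most 9.41 and 3.81 CPM in any library, and neuroendocrine markers to 16.4 to 23.7 CPM in the NVR-labelled libraries, 5.20 to 7.57 in OV-CTRL and at most 0.841 elsewhere. The part of these markers in the results was not tested. In bulk RNA, fewer cells of a type and less RNA per cell cannot be told apart. ML355 against OV-L1-FGGY DMSO and the NVR-labelled libraries against OV-CTRL are comparisons within a set and share no library. All others cross the sets, and there the labelled condition and the set cannot be told apart.

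Of the 71 members, 61 passed the filter on low counts, 32 of them cytosolic, 9 mitochondrial and 20 neither. The other 10 (DNAJB7, DNAJB8, DNAJC5B, DNAJC5G, DNAJC25-GNG10, HSPB2, HSPB2-C11orf52, HSPB3, HSPB9 and HSPE1-MOB4) reached at most 11 counts in any library. Of these, HSPB2 and the read-through genes HSPB2-C11orf52, DNAJC25-GNG10 and HSPE1-MOB4 were at 0 throughout.

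With ML355 the inducible HSP70 genes and DNAJB1 rose and the constitutive HSPA8 fell, while the inducible HSP90AA1 and HSPH1 were not called. DNAJB1, HSPA1A, HSPA1B and HSPA6 were 6.07-fold, 5.99-fold, 10.2-fold and 30.4-fold higher than in OV-L1-FGGY DMSO, while HSPA8 was 1.63-fold lower. In mitochondria HSPA9, HSPD1 and DNAJA3 rose and DNAJC11 and DNAJC15 fell. Of the 61 members tested, 19 were higher, 16 lower and 26 not called at an adjusted p under 0.01 (edgeR's quasi-likelihood test), where 21.3% of all 17849 genes were higher and 23.5% lower. The count was 13 higher and 17 lower when libraries were scaled by their total counts, which moved the median of all genes by -0.13 on the log2 scale. The median log2 fold change of the members was 0.11, that of the 32 cytosolic members 0.02 (11 higher, 6 lower) and that of the 9 mitochondrial members -0.35 (4 higher, 3 lower). No direction was thus shared over the set, and the members are described by their roles.

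**Figure D1:**
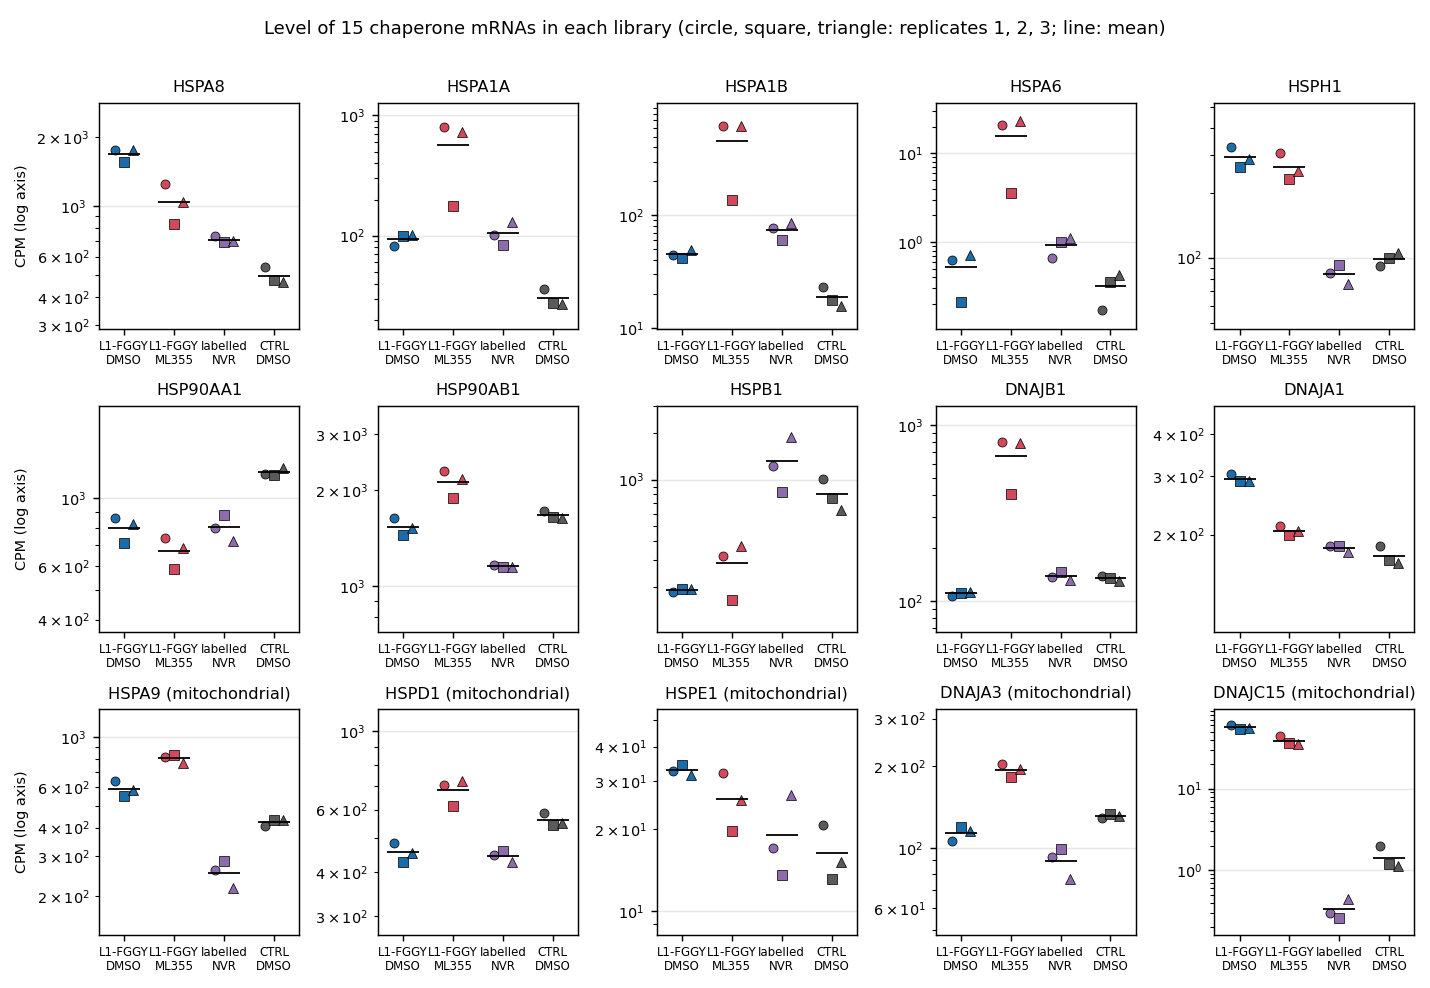
Level of core chaperones in each of the 12 libraries in CPM on a log axis, with 1 point per library, and the group mean, for the 4 groups. HSPA1A, HSPA1B and DNAJB1 are highest in the 3 ML355 libraries, with replicate 2 lowest of the 3, and HSPA8 is highest in OV-L1-FGGY DMSO.

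The inducible HSP70 proteins are encoded by HSPA1A (chr6:31815543-31817946, GRCh38) and HSPA1B (chr6:31827738-31830254), which lie side by side and encode near-identical proteins. HSPA1A had a level of 81.5, 100.1 and 101 CPM in replicates 1, 2 and 3 of the OV-L1-FGGY DMSO group and 796, 177 and 724 CPM with ML355. In the NVR-labelled libraries it stood at 101, 83.9 and 129.8 CPM, and in OV-CTRL at 36.1, 27.8 and 27 CPM. Every ML355 library was above all 9 others, and every NVR-labelled library was above every OV-CTRL library. The log2 fold change was 2.58 (standard error 0.37, adjusted p = 2.32e-05) with ML355 and 1.79 (0.37, adjusted p = 0.00107) for the NVR-labelled libraries against OV-CTRL. HSPA1B followed the same order, with 44.2, 42.0 and 49.2 CPM in OV-L1-FGGY DMSO, 615, 138 and 623 with ML355, 77.7, 59.7 and 85.5 in the NVR-labelled libraries and 23.2, 17.6 and 15.7 in OV-CTRL. Its log2 fold change was 3.35 (standard error 0.39, adjusted p = 2.61e-06) with ML355 and 1.98 (0.38, adjusted p = 6.19e-04) in the NVR-labelled libraries. The 2 genes shared 73.7% and 71.6% of their windows of 50 bases, so that the split of reads between them is uncertain. With their counts added the changes were 2.88 (adjusted p = 9.28e-06) and 1.87 (adjusted p = 7.87e-04).

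Replicate 2 of ML355 stood apart from the other two for these genes. Its level was 4.30-fold below the mean of replicates 1 and 3 for HSPA1A, 4.49-fold for HSPA1B and 6.09-fold for HSPA6. Of the 58 members with a mean of at least 1 CPM in that group, 6 were more than 1.5-fold lower there (10.3%), beside 9.20% of all genes at that level. Without this library the log2 fold changes with ML355 were 3.01 for HSPA1A and 3.78 for HSPA1B. The log2 difference between the NVR-labelled and the ML355 effect, tested as an interaction, was -0.79 for HSPA1A (adjusted p = 0.216) and -1.37 for HSPA1B (adjusted p = 0.0402), and became -1.22 (adjusted p = 7.35e-04) and -1.80 (adjusted p = 1.80e-05) without it. Fitted with only the 2 groups compared, both ML355 calls missed the threshold at the same size (adjusted p = 0.0242 and 0.0126). In the NVR-labelled libraries the call of HSPA1A was lost without NVR replicate 2 or 3 or any 1 OV-CTRL replicate (log2 fold changes of 1.93, 1.63, 1.94, 1.73 and 1.71). That of HSPA1B was lost without NVR replicate 2 or 3 or OV-CTRL replicate 3 (2.12, 1.88 and 1.86). Without the filter on low counts, both of these calls were also lost (1.77 and 1.95).

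HSPA6 (chr1:161524540-161526894), a strictly inducible HSP70 with little transcript in unstressed cells, stood at 0.631, 0.210 and 0.705 CPM in OV-L1-FGGY DMSO and 20.7, 3.6 and 23.2 CPM with ML355, from 420, 70 and 442 counts. In the NVR-labelled libraries it was at 0.650, 1.00 and 1.10 CPM and in OV-CTRL at 0.168, 0.352 and 0.422 CPM. Only the ML355 libraries were above 2 CPM. The log2 fold change was 4.93 (standard error 0.60, adjusted p = 4.24e-06) with ML355, or 5.40 without ML355 replicate 2, and 1.51 (0.76, adjusted p = 0.117) in the NVR-labelled libraries. Its call with ML355, too, was lost when only the 2 groups compared were fitted (adjusted p = 0.0109). HSPA6 shared 45.8% of its 50-base windows with the pseudogene HSPA7, which makes its level uncertain.

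HSPA8 (chr11:123057489-123063230), the constitutive cytosolic HSP70, moved the other way. It stood at 1748, 1561 and 1763 CPM in OV-L1-FGGY DMSO, 1244, 834 and 1041 with ML355, 740.0, 698 and 699.6 in the NVR-labelled libraries and 542, 476 and 465 in OV-CTRL. None of the 4 groups overlapped. HSPA8 fell with ML355 (log2 fold change -0.70, standard error 0.14, adjusted p = 4.47e-04) and was higher in the NVR-labelled libraries than in OV-CTRL (0.53, standard error 0.14, adjusted p = 0.00598). The second call was lost under scaling by total counts (0.37) and without NVR replicate 1 (0.50), OV-CTRL replicate 2 (0.50) or OV-CTRL replicate 3 (0.48). The ML355 and NVR-labelled effects differed by 1.23 (adjusted p = 9.86e-05). Per kilobase of exon, HSPA1A and HSPA1B together amounted to 14.3, 18.1 and 17.0 per 100 of HSPA8 in OV-L1-FGGY DMSO and 224, 74.5 and 256 with ML355. The values were 47.8, 40.7 and 61 in the NVR-labelled libraries and 21.7, 18.9 and 18.2 in OV-CTRL. By this measure the proportion of inducible to constitutive HSP70 was highest in the ML355 libraries, then in those labelled NVR, and lowest in OV-L1-FGGY DMSO. Exon length took in every annotated exon base (4849 for HSPA8, 2404 for HSPA1A and 2517 for HSPA1B). The ratios therefore compare groups and are not absolute amounts.

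Among the remaining cytosolic HSP70 genes, HSPA2, best known from spermatogenesis, was at 5.91, 9.83 and 8.21 CPM in OV-L1-FGGY DMSO and at 1.28, 0.978 and 0.998 CPM with ML355, a fall of 2.87 on the log2 scale (adjusted p = 4.03e-08). It stood at 56.2, 65.8 and 45.5 CPM in the NVR-labelled libraries and 59.1, 59.9 and 62.5 in OV-CTRL (log2 fold change -0.11, adjusted p = 0.574). HSPA2 thus parted the 2 sets of libraries, and within the first set it was lowest with ML355. HSPA14, an HSP70 of the ribosome-associated complex, was lower in both comparisons within a set, at 44.5, 42.3 and 42.1 CPM in OV-L1-FGGY DMSO against 15.5, 18.2 and 16.1 with ML355 (log2 fold change -1.37, adjusted p = 7.14e-08), and at 14.4, 14.0 and 16 in the NVR-labelled libraries against 24.4, 21.0 and 23.3 in OV-CTRL (-0.63, adjusted p = 4.17e-04). Over the 9 cytosolic HSP70 genes tested, 3 rose and 3 fell with ML355, beside 21.3% and 23.5% of all genes.

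The DNA sequence bound by HSF1, the heat shock element, is a run of alternating 5-base units NGAAN and NTTCN. Promoter windows of RefSeq on GRCh38.p14, from 250 bases before to 50 after each start site, were searched on both strands for adjacent units. Windows of HSPA6, HSPA1A and DNAJB1, chosen from the 9 tested members that held an element and rose with ML355, are shown. They run up to the start site, in the direction of the gene, with all units of an element in capitals. For HSPA6 (chr1:161524290-161524539, plus strand) and HSPA1A (chr6:31815293-31815542, plus strand) the windows read
HSPA6: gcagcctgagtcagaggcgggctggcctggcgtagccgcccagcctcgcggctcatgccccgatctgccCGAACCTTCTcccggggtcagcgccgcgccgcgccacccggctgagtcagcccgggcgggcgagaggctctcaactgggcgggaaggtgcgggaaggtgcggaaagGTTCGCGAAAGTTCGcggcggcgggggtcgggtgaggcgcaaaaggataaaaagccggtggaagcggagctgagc
HSPA1A: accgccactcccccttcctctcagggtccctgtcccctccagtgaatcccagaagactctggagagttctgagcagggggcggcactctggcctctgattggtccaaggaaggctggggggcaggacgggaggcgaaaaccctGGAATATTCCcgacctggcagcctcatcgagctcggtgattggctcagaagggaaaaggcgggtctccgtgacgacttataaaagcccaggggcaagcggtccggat
HSPA6 held an element of 3 units from 75 to 61 bases before the start, beside 2 units farther from it, and HSPA1A an element of 2 units from 107 to 98 bases before it. The HSPA1A element also lies in the window of HSPA1L, which is transcribed the other way, and HSPA1B had the same 10 bases from 106 to 97 before its start. No such element was in the windows of DNAJC4, DNAJB5 and DNAJB2, which also rose with ML355, and single mismatches to a unit were not searched for.

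DNAJB1 (chr19:14514769-14560391), the HSP40 that pairs with inducible HSP70, stood at 107, 111 and 113 CPM in OV-L1-FGGY DMSO and 806, 406 and 798 CPM with ML355. It was at 137, 147 and 132 CPM in the NVR-labelled libraries and 139, 136 and 131 in OV-CTRL. The rise was seen with ML355 alone among the 4 groups, at 2.60 on the log2 scale (standard error 0.19, adjusted p = 2.10e-08), or 2.86 without ML355 replicate 2, against 0.04 (0.18, adjusted p = 0.896) in the NVR-labelled libraries. The 2 effects differed by -2.56 (adjusted p = 1.32e-06). A longer annotated DNAJB1 transcript runs across TECR, a gene of the other strand, whose reads would not be told apart there by counting without strand. In being higher with ML355 and not called in the other comparison, DNAJB1 differed from HSPA1A and HSPA1B. Those 2 genes were called higher in both comparisons, but their calls in the NVR-labelled libraries were lost without some single libraries. The DNAJB1 window (chr19:14518398-14518647, minus strand) is shown beside those of HSP70 and held 2 elements of 2 units, from 78 to 69 and from 48 to 39 bases before the start.
DNAJB1: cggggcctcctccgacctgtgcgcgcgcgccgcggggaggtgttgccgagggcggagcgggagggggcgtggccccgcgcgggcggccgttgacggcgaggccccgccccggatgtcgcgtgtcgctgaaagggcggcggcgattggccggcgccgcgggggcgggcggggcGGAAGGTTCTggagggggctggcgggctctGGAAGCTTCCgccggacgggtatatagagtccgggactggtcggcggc

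DNAJA1, a farnesylated J protein that serves HSPA8, moved with ML355 in the direction of HSPA8, not of DNAJB1. It was at 304, 289 and 289.6 CPM in OV-L1-FGGY DMSO, 212, 199 and 205 with ML355, 185, 185 and 177 in the NVR-labelled libraries and 184, 168 and 164 in OV-CTRL. It fell with ML355 (log2 fold change -0.52, standard error 0.09, adjusted p = 1.99e-04) and was at 0.08 (adjusted p = 0.492) in the NVR-labelled libraries, where HSPA8 was called higher and DNAJB1 was not called. Of the 14 cytosolic J proteins tested, 6 rose and 2 fell with ML355, beside 21.3% and 23.5% of all genes. DNAJB5 rose from 1.72, 2.68 and 1.36 to 4.48, 5.05 and 6.41 CPM (log2 fold change 1.46, adjusted p = 1.19e-04). DNAJB2, which escorts ubiquitylated clients to the proteasome, rose from 18.1, 18.6 and 17.0 to 48.3, 40.4 and 53.6 CPM (1.41, adjusted p = 1.24e-06) and was also higher in the NVR-labelled libraries, at 116, 101 and 146 CPM against 82.8, 68.4 and 62.4 in OV-CTRL (0.77, adjusted p = 5.90e-04). DNAJC2, which recruits HSP70 to the ribosome, rose with ML355 from 66.0, 59.2 and 67.5 to 112, 100.1 and 87.8 CPM (0.64, adjusted p = 3.69e-04) but was lower in the NVR-labelled libraries, at 13.9, 14.0 and 11.1 CPM against 24.7, 27.1 and 29.6 (-1.06, adjusted p = 1.21e-05). No library of the compared groups overlapped for DNAJB5, DNAJB2 or DNAJC2.

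HSP90 has an inducible form, HSP90AA1, and a constitutive form, HSP90AB1, and both were among the leading cytosolic chaperones by count beside HSPA8 and HSPB1. HSP90AB1 was at 1640.2, 1450.3 and 1521 CPM in OV-L1-FGGY DMSO, 2299, 1891 and 2162 with ML355, 1169, 1152 and 1152 in the NVR-labelled libraries and 1722, 1643 and 1638 in OV-CTRL. It was higher with ML355 (log2 fold change 0.46, standard error 0.12, adjusted p = 0.00288) and lower in the NVR-labelled libraries (-0.53, standard error 0.12, adjusted p = 0.00179). The ML355 call was lost under scaling by total counts (0.33) and without OV-L1-FGGY DMSO replicate 2 (0.41) or 3 (0.44) or ML355 replicate 1 (0.40). HSP90AA1 stood at 857, 714 and 822 CPM in OV-L1-FGGY DMSO and 737, 585 and 685 with ML355, groups that overlap (log2 fold change -0.25, adjusted p = 0.0966). It was lower in the NVR-labelled libraries, at 799, 881 and 724 CPM against 1198, 1191 and 1249 in OV-CTRL (-0.60, adjusted p = 0.00126). The inducible HSP90 form was therefore not among the genes called higher with ML355. Its window (chr14:102087045-102087294, minus strand), which lies inside an intron of a longer HSP90AA1 transcript, is shown because it held 1 element of 3 units, from 89 to 75 bases before the start, and 1 of 2 units, from 69 to 60.
HSP90AA1: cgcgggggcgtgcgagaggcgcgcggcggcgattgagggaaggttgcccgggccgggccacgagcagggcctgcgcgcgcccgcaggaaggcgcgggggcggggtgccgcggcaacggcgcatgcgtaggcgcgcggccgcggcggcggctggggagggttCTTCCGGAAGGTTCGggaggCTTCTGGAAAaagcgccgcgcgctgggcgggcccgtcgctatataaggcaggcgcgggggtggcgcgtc

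Heat shock elements were more frequent among the members' windows than among all genes, and members that carry them were called in both directions. At least 3 adjacent units were found in 7 of 63 members with a window (11.1%) and in 163 of 27305 genes in all (0.597%), and at least 2 in 21 members (33.3%) and 4386 genes (16.1%). These are descriptions of letters in a window, not of binding. The remaining elements of at least 3 units, with 4 bases on either side and units in capitals, are shown because their carriers moved in different directions.
DNAJA1 (chr9:33025271-33025293, plus strand): gggcGGAACTTTCCAGAACgctc
DNAJB6 (chr7:157336868-157336890, plus strand): gccgAGAACCTTCGCGAAGgtgg
HSP90AB1 (chr6:44247773-44247795, plus strand): gcagGTTCTGGAAGATTCAtggg
HSP90AB1 (chr6:44247826-44247848, plus strand): gattGTTCTGGAAGCTTCTggat
HSPA8 (chr11:123062349-123062371, minus strand): agctTGAAAGTTCCAGAACgctg
HSPA8 (chr11:123062174-123062196, minus strand): gcccCTTCTGGAAGGTTCTaaga
HSPD1 (chr2:197500063-197500090, minus strand): gcatTTTCTGGAAAGTTCTGGAACcgag
The DNAJA1 element begins just after the start site. HSPD1 held 4 units in a row, as did 12 of all genes (0.0439%). With ML355, 3 of these 7 genes rose (HSP90AB1, HSPA6 and HSPD1), 2 fell (DNAJA1 and HSPA8) and 2 were not called (DNAJB6 and HSP90AA1). Of the 19 tested members with at least 2 units 9 rose, 3 fell and 7 were not called, and of the 37 with a window but no such element 10 rose, 11 fell and 16 were not called, beside 21.3% of all genes higher and 23.5% lower. The difference between members with and without elements was not tested. The cytosolic members with a window held at least 2 units in 18 of 35 cases, the mitochondrial in 3 of 9 and the others in 0 of 19.

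Small heat shock proteins differed widely between the 2 sets of libraries. HSPB1 (chr7:76302673-76304295), or HSP27, was at 186, 194 and 193 CPM in OV-L1-FGGY DMSO, 319, 164 and 371 with ML355, 1226, 826 and 1891 in the NVR-labelled libraries and 1014, 757 and 632 in OV-CTRL. Per kilobase of exon it was the highest member in the NVR-labelled libraries (810 CPM per kb), whereas HSP90AB1 led in OV-L1-FGGY DMSO (516), with ML355 (711) and in OV-CTRL (559.6). Both comparisons within a set overlapped, at log2 fold changes of 0.58 (standard error 0.28, adjusted p = 0.0955) with ML355 and 0.71 (0.28, adjusted p = 0.0513) in the NVR-labelled libraries. HSPB7 (chr1:16014028-16019594), a small heat shock protein of cardiac muscle, stood at 23.7, 21.2 and 22.9 CPM in OV-L1-FGGY DMSO and 10.0, 8.34 and 10.7 with ML355 (log2 fold change -1.22, adjusted p = 5.37e-05). It was at or near 0 in the other 6 libraries. HSPB8, which works with BAG3 in selective autophagy, was at 51.9, 39.9 and 47.6 CPM in OV-L1-FGGY DMSO and 39.9, 39.1 and 41.5 with ML355 (-0.21, adjusted p = 0.141).

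Of the 3 HSP110 exchange factors, HSPA4L rose with ML355 (log2 fold change 0.98, adjusted p = 3.24e-05), and HSPA4 (-0.11) and HSPH1 (-0.15) were not called. HSPH1, the inducible member, was at 325, 263 and 286 CPM in OV-L1-FGGY DMSO, 304, 232 and 253 with ML355, 85.1, 92.7 and 75.1 in the NVR-labelled libraries and 91.1, 99.6 and 105 in OV-CTRL. It separated the 2 sets but neither comparison within them, where its log2 fold changes were -0.15 (adjusted p = 0.332) and -0.23 (adjusted p = 0.162). HSPH1 and HSP90AA1, both known targets of HSF1, were thus not called higher where HSPA1A, HSPA6 and DNAJB1 were.

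The mitochondrial HSP70 is HSPA9 (chr5:138553756-138575675), or mortalin. It was at 642, 551 and 585 CPM in OV-L1-FGGY DMSO, 816, 829 and 771 with ML355, 261, 284 and 218 in the NVR-labelled libraries and 405, 432 and 434 in OV-CTRL, so that no groups overlapped. HSPA9 was higher with ML355 (log2 fold change 0.44, standard error 0.12, adjusted p = 0.00431) and lower in the NVR-labelled libraries (-0.74, 0.12, adjusted p = 1.38e-04), and the effects differed by -1.18 (adjusted p = 3.03e-05). Its ML355 call was lost under scaling by total counts (0.32) and without OV-L1-FGGY DMSO replicate 2 (0.38) or 3 (0.42) or ML355 replicate 1 (0.43) or 2 (0.42). DNAJA3 (chr16:4425805-4456775), the J protein that serves HSPA9, took the same course. It was at 106, 119.6 and 116 CPM in OV-L1-FGGY DMSO and 204, 182 and 196 with ML355 (log2 fold change 0.77, standard error 0.11, adjusted p = 1.94e-05). In the NVR-labelled libraries it was at 92.2, 99.3 and 76.7 CPM against 129, 133 and 131 in OV-CTRL (-0.55, 0.11, adjusted p = 7.71e-04).

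The mitochondrial chaperonin is built of HSPD1 (HSP60) rings closed by HSPE1 (HSP10), and both genes start from one stretch of chromosome 2 in opposite directions. HSPD1 (chr2:197486584-197516737) was at 483, 425 and 452 CPM in OV-L1-FGGY DMSO and 706, 614 and 722 with ML355 (log2 fold change 0.59, standard error 0.11, adjusted p = 2.41e-04). It was at 445, 457 and 427 CPM in the NVR-labelled libraries and 588, 543 and 549 in OV-CTRL, groups that do not overlap (-0.34, adjusted p = 0.0187). DESeq2 and voom called that difference (adjusted p = 0.00353 and 0.00933), as did edgeR under scaling by total counts (-0.49, adjusted p = 0.00219). HSPE1 (chr2:197500140-197503449) was at 32.7, 34.4 and 31.4 CPM in OV-L1-FGGY DMSO, 32, 19.6 and 25.6 with ML355, 17.0, 13.6 and 26.6 in the NVR-labelled libraries and 20.7, 13.1 and 15.1 in OV-CTRL. Neither comparison within a set was called for HSPE1 (-0.35, adjusted p = 0.193, and 0.22, adjusted p = 0.465). It shares 10.5% of its exon bases with the read-through gene HSPE1-MOB4 and lies across HSPD1 on the other strand, so that its count is uncertain.

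Of the 6 mitochondrial J proteins, DNAJA3 and DNAJC19 rose with ML355, DNAJC11, DNAJC15 and DNAJC28 fell and DNAJC30 was not called (log2 fold change -0.35). DNAJC11, which takes part in cristae organisation, fell from 39.1, 43.9 and 50.8 to 20.4, 16.9 and 18.7 CPM with ML355 (-1.26, adjusted p = 1.15e-05). It was at 16, 21.7 and 12.5 CPM in the NVR-labelled libraries against 34.2, 39.3 and 40.3 in OV-CTRL (-1.17, adjusted p = 5.26e-05), a change of similar size. DNAJC15 and DNAJC19 act at the import motor of the inner membrane. DNAJC15 (chr13:43023203-43114213) was at 59.6, 54.5 and 55.0 CPM in OV-L1-FGGY DMSO, 44.6, 36.7 and 35.5 with ML355, 0.300, 0.259 and 0.439 in the NVR-labelled libraries and 1.98, 1.17 and 1.11 in OV-CTRL. It was lower in both comparisons within a set (-0.53, adjusted p = 0.00552, and -2.11, adjusted p = 7.11e-05). DNAJC19 was instead higher in both, by 0.51 (adjusted p = 0.00986) and 0.58 (adjusted p = 0.00604). DNAJC28 had at most 2 counts in any ML355 library against 8 to 32 in OV-L1-FGGY DMSO, which is at least 6.90-fold lower.

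Summed over genes, counts of the 39 cytosolic members came to 6680, 6039 and 6491 CPM in OV-L1-FGGY DMSO and 8796, 6098 and 8310 with ML355. They came to 5366, 4969 and 5895 CPM in the NVR-labelled libraries and 5801, 5341 and 5263 in OV-CTRL. These sums overlapped in both comparisons, and the mean ratio was 1.21 with ML355 and 0.989 for the NVR-labelled libraries. The 9 mitochondrial members came to 1395, 1263 and 1318 CPM in OV-L1-FGGY DMSO, 1866, 1740 and 1804 with ML355, 878, 911 and 810 in the NVR-labelled libraries and 1218, 1192 and 1201 in OV-CTRL. These did not overlap, with mean ratios of 1.36 with ML355 and 0.720 for the NVR-labelled libraries. No test was run on these sums, which a few abundant genes set. HSPA9 and HSPD1 held 44.7% and 34.2% of the mitochondrial sum in OV-L1-FGGY DMSO and 29.3% and 51.1% in the NVR-labelled libraries, and with ML355 the sum was higher although the median member was lower. HSPA8 held 26.4% of the cytosolic sum in OV-L1-FGGY DMSO, 13.4% with ML355, 13.2% in the NVR-labelled libraries and 9.04% in OV-CTRL. The mitochondrial sum per 100 of the cytosolic was 20.9, 20.9 and 20.3 in OV-L1-FGGY DMSO, 21.2, 28.5 and 21.7 with ML355, 16.4, 18.3 and 13.7 in the NVR-labelled libraries and 21.0, 22.3 and 22.8 in OV-CTRL. The balance of the 2 compartments was thus lowest in the NVR-labelled libraries and overlapped with no library of OV-CTRL.

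**Figure D2:**
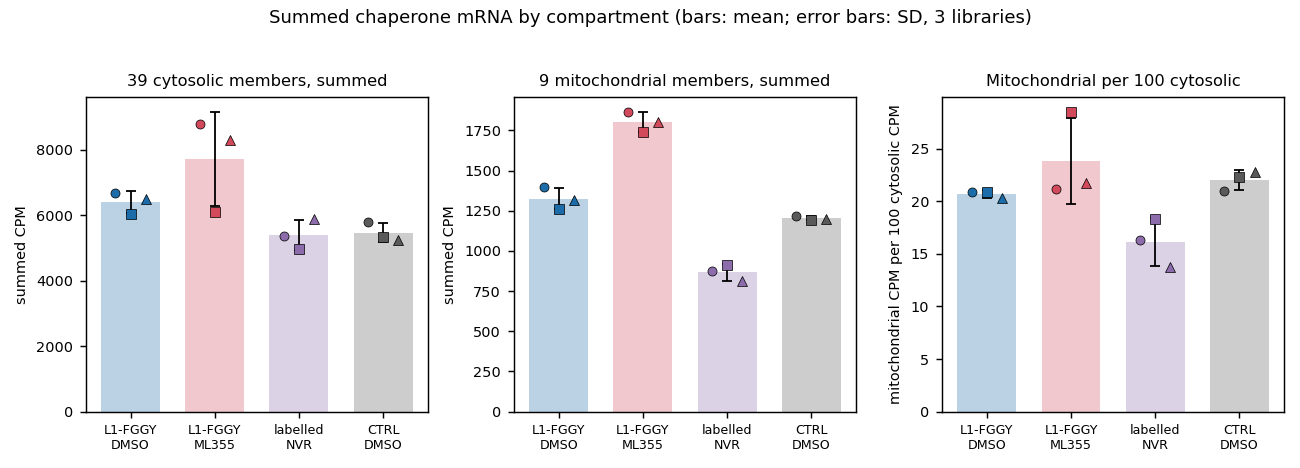
Summed counts of the 39 cytosolic and of the 9 mitochondrial members in CPM, and the mitochondrial sum per 100 of the cytosolic, with 1 point per library, bars at the group mean and error bars of 1 SD. The mitochondrial sums of ML355 (1740 to 1866 CPM) lie above and those of the NVR-labelled libraries (810 to 911 CPM) below the libraries of their controls, while the cytosolic sums overlap.

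Members outside both compartments included several of the largest falls with ML355. DNAJC18, a J protein of the endoplasmic reticulum membrane, fell from 6.83, 7.26 and 7.61 to 1.63, 1.44 and 1.31 CPM (log2 fold change -2.30, adjusted p = 8.21e-08). DNAJC16 fell from 21.6, 19.6 and 21.4 to 7.39, 8.65 and 8.93 CPM (-1.33, adjusted p = 2.01e-06), and DNAJC22 from 3.67, 6.42 and 5.29 to 2.12, 1.91 and 2.36 CPM (-1.27, adjusted p = 4.36e-05). DNAJC4 rose from 4.47, 7.42 and 7.31 to 20.3, 13.2 and 20.1 CPM (1.48, adjusted p = 8.85e-05). It was also higher in the NVR-labelled libraries, at 34.8, 28.3 and 46.3 CPM against 19.8, 14.4 and 12.6 (1.22, adjusted p = 4.82e-04). HSPA13, an HSP70 of microsomes, rose with ML355 by a log2 fold change of 1.11 (adjusted p = 2.55e-06).

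The NVR-labelled libraries were set against OV-CTRL over all members. Of the 61, 10 were higher, 12 lower and 39 not called, where 14.5% of all genes were higher and 15.3% lower (7 higher and 16 lower under scaling by total counts, which moved the median of all genes by -0.15). Without OV-CTRL replicate 2 or OV-CTRL replicate 3, 6 were called higher. The median log2 fold change was -0.10, with 0.01 over the cytosolic members (6 higher, 5 lower) and -0.34 over the mitochondrial (1 higher, 4 lower). DNAJC9, a histone chaperone, was at 12.2, 17.2 and 10.5 CPM against 34.6, 39.2 and 35.1 in OV-CTRL (log2 fold change -1.44, adjusted p = 2.31e-06). DNAJC7, a J protein that binds HSP70 and HSP90, was at 34.2, 36.0 and 32.4 CPM against 65.2, 59 and 56.6 (-0.82). DNAJC1, a J protein of the endoplasmic reticulum membrane, was higher, at 73.4, 65.6 and 89.1 CPM against 42.7, 33.9 and 30.4 (1.09), as was DNAJC12 at 48.1, 42.1 and 51.3 CPM against 31.5, 22.2 and 22.7 (0.89). All of these groups were apart.

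**Figure D3:**
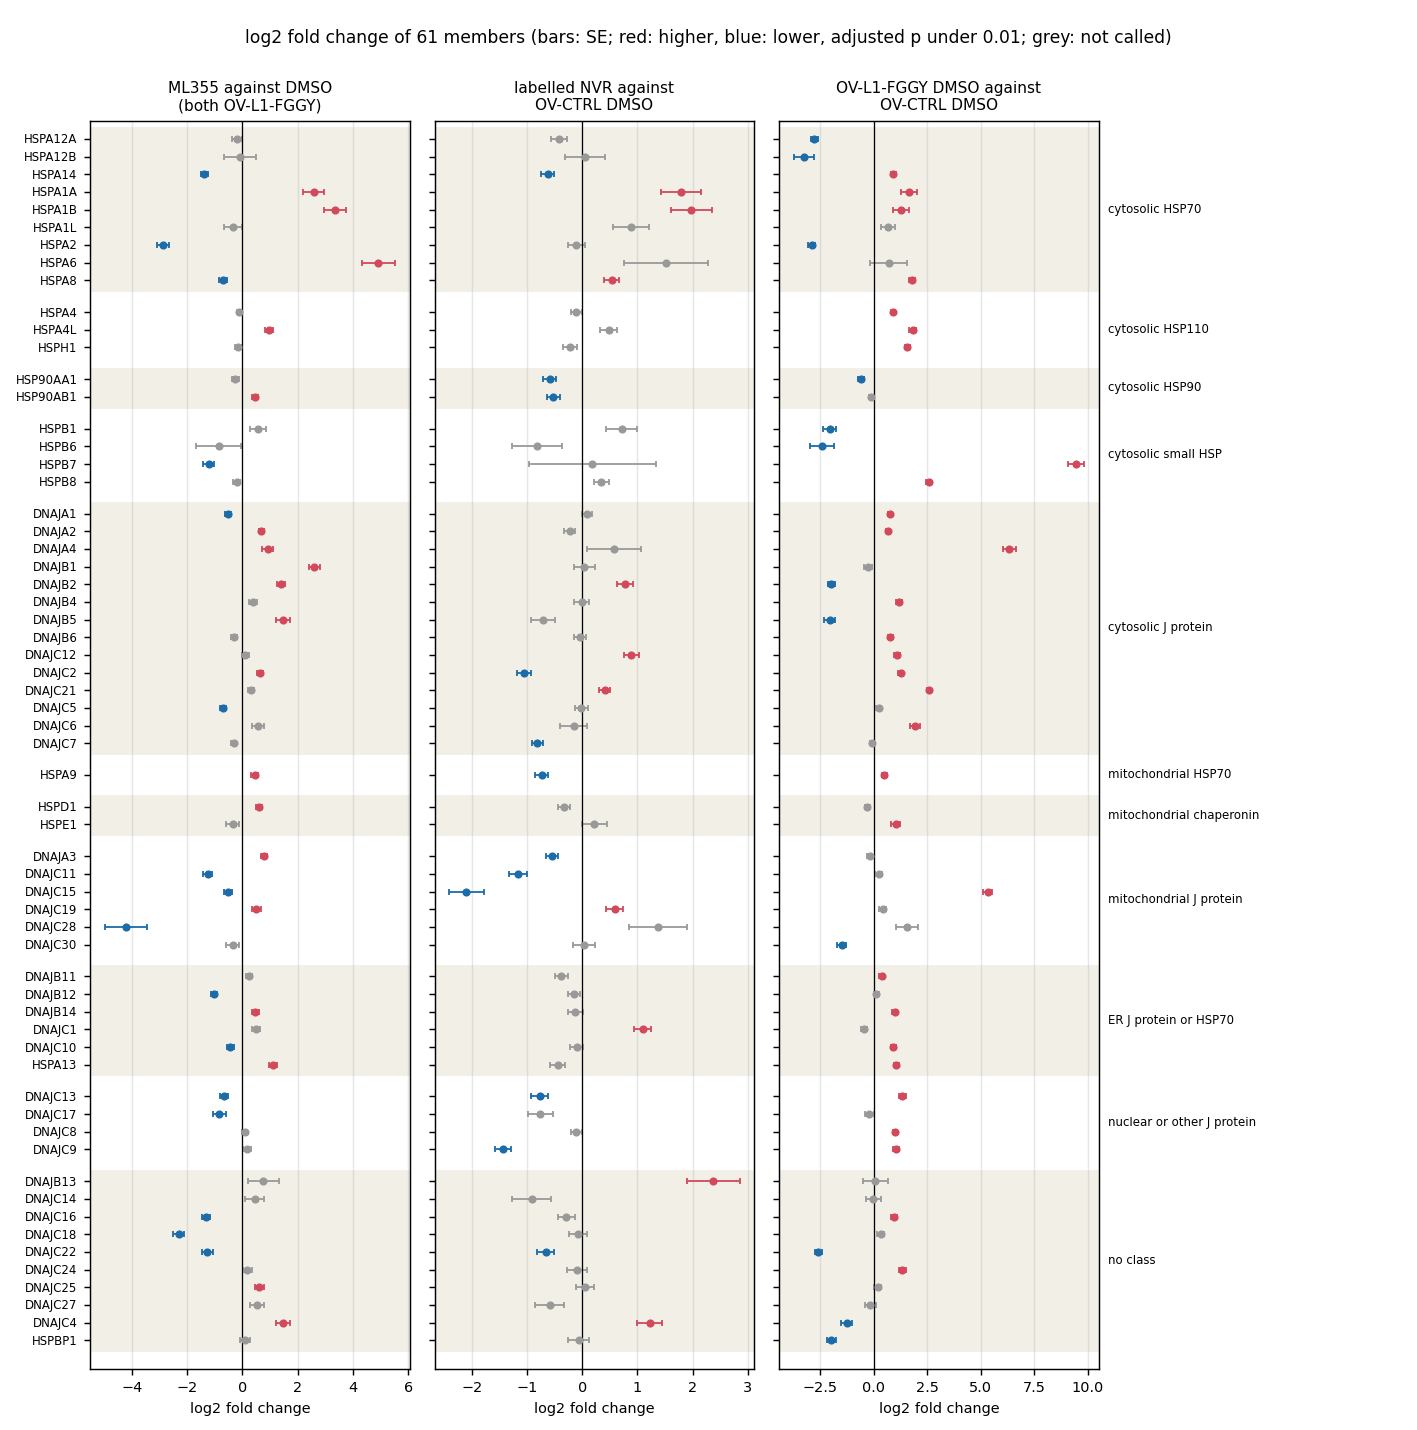
Log2 fold change of each of the 61 members tested with its standard error, with ML355 against OV-L1-FGGY DMSO, the NVR-labelled libraries against OV-CTRL, and OV-L1-FGGY DMSO against OV-CTRL. Red points (higher) and blue points (lower) are called at an adjusted p under 0.01 and grey points are not. Calls were made for 35 members in the first panel (57.4%), 22 in the second (36.1%) and 42 in the third (68.9%). The shares over all genes were 44.8%, 29.8% and 68.7%, so that the third count is near that share.

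The ML355 comparison and that of the NVR-labelled libraries with OV-CTRL share no library, and 15 members were called in both. These are 42.9% of the 35 called with ML355 and 68.2% of the 22 called in the other, beside 33.4% and 50.3% over all genes. Of the 15, 5 were higher in both (HSPA1A, HSPA1B, DNAJB2, DNAJC4 and DNAJC19), 5 lower in both (HSPA14, DNAJC11, DNAJC13, DNAJC15 and DNAJC22) and 5 opposite, a split near that of the 2672 genes called in both (31.5%, 33.1% and 35.4%). HSPA9, DNAJA3, HSP90AB1 and DNAJC2 were higher with ML355 and lower in the NVR-labelled libraries, and HSPA8 was lower with ML355 and higher in the NVR-labelled libraries. The test of the difference itself called 22 of the 61 members, 10 with the larger value in the NVR-labelled libraries and 12 with the smaller, where 16.8% and 17.3% of all genes were called in those directions.

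Across the 2 sets, OV-L1-FGGY was compared with OV-CTRL, both with DMSO. Of the members, 30 were higher and 12 lower in OV-L1-FGGY, where 32.5% of all genes were higher and 36.2% lower, and the median was 0.65 beside -0.11 over all genes. HSPA8, HSPH1, HSPA4 and HSPA4L were all higher, with log2 fold changes of 1.77, 1.56, 0.89 and 1.81. HSPA1A and HSPA1B were also higher (1.64, adjusted p = 7.11e-04, and 1.26, adjusted p = 0.006). The first call was lost without OV-CTRL replicate 3 (1.56) and without the filter on low counts (1.57). The second was lost without any 1 of the 6 libraries (1.14 to 1.45). With all libraries kept, it was also lost under DESeq2 (1.22, adjusted p = 0.0153) and voom (1.28, adjusted p = 0.0182). The same held with at least 10 counts in every library (1.16) and without a filter (1.19). HSPA2, HSPA12A, HSPA12B, HSPB1 and DNAJC22 were lower (-2.92, -2.78, -3.29, -2.07 and -2.60). DNAJA4 was at 27, 22.2 and 26.1 CPM in OV-L1-FGGY and at most 0.345 in OV-CTRL (6.34, adjusted p = 1.93e-11), DNAJC15 was 39.8-fold higher (5.31, adjusted p = 7.18e-13), and HSPB7, with at most 1 count in any OV-CTRL library, was at least 189-fold higher. DNAJC21, a J protein of ribosome assembly, was at 195, 178 and 186 CPM against 29.1, 31.4 and 34.0 (2.57, adjusted p = 2.87e-12).

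Compared with OV-L1-FGGY DMSO, the baseline that their label implies, the NVR-labelled libraries had 12 members higher and 31 lower, where 38.2% of all genes were higher and 35.4% lower. HSPB1 was higher (log2 fold change 2.78, adjusted p = 3.00e-07), and HSPA8, HSPA9 and HSPH1 were lower (-1.25, -1.22 and -1.79). HSPA1A and HSPA1B were not called there (0.15, adjusted p = 0.698, and 0.72, adjusted p = 0.0807), although both were higher than in OV-CTRL. Against ML355, 16 members were higher and 34 lower in the NVR-labelled libraries, where 39.4% of all genes were higher and 35.0% lower.

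Partners of the chaperones were taken from 6 lists with 59 genes tested. The lists were chosen with earlier results of these data known, so that their counts beside the shares over all genes are descriptions only. Counts of partners were not recomputed under other scalings. With ML355 30 were higher, 3 lower and 26 not called, and in the NVR-labelled libraries against OV-CTRL 6 were higher and 17 lower. The shares over all genes were 21.3% and 23.5% with ML355 and 14.5% and 15.3% in the NVR-labelled libraries. All 6 genes of prefoldin, which hands nascent actin and tubulin to the chaperonin TRiC, rose with ML355, and PFDN2 did so from 46.9, 55.7 and 58.2 to 256, 188 and 263 CPM (log2 fold change 2.14, adjusted p = 3.22e-08). Of the 8 TRiC subunits 1 rose with ML355, and 5 were lower in the NVR-labelled libraries, among them CCT5 at 170.4, 174 and 153 CPM against 295, 287 and 283 (-0.80, adjusted p = 3.65e-05). Of the 14 mitochondrial partners 7 rose and 2 fell with ML355, and 1 was higher and 6 lower in the NVR-labelled libraries. GRPEL2, a nucleotide exchange factor of HSPA9, was picked from these partners by its small adjusted p. It rose from 40.3, 37.4 and 37.1 to 95.4, 118 and 96.6 CPM with ML355 (1.43, adjusted p = 2.35e-08). It was at 12.4, 12.1 and 11.6 CPM in the NVR-labelled libraries against 20.4, 20.9 and 21.1 (-0.79, adjusted p = 5.16e-05), in the same directions as HSPA9 and DNAJA3.

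Among the 9 genes of the heat shock factors and their further targets, 5 rose with ML355 and 2 were higher in the NVR-labelled libraries, beside 21.3% and 14.5% of all genes higher, so that the second count is near the level over all genes. HSF1 rose from 115, 124 and 121 to 317, 239 and 309 CPM (log2 fold change 1.26, adjusted p = 2.55e-07). IER5, an HSF1 target that in turn raises HSF1 activity, rose from 112, 109 and 105 to 295, 309.7 and 419 CPM (1.65, adjusted p = 3.86e-08) and was at 243, 257 and 256 CPM in the NVR-labelled libraries against 159, 160.3 and 134 (0.74, adjusted p = 2.80e-04). BAG3, an HSP70 exchange factor of selective autophagy, was on the list of HSP70 partners and is not among these 9. It rose from 44.6, 43.7 and 50.3 to 90.5, 66.8 and 104 CPM with ML355 (0.91, adjusted p = 4.54e-05), beside 93.9, 104 and 84.4 CPM in the NVR-labelled libraries against 101, 105 and 98.2 (-0.10, adjusted p = 0.570). The groups did not overlap for HSF1, IER5 or BAG3 with ML355.

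**Figure D4:**
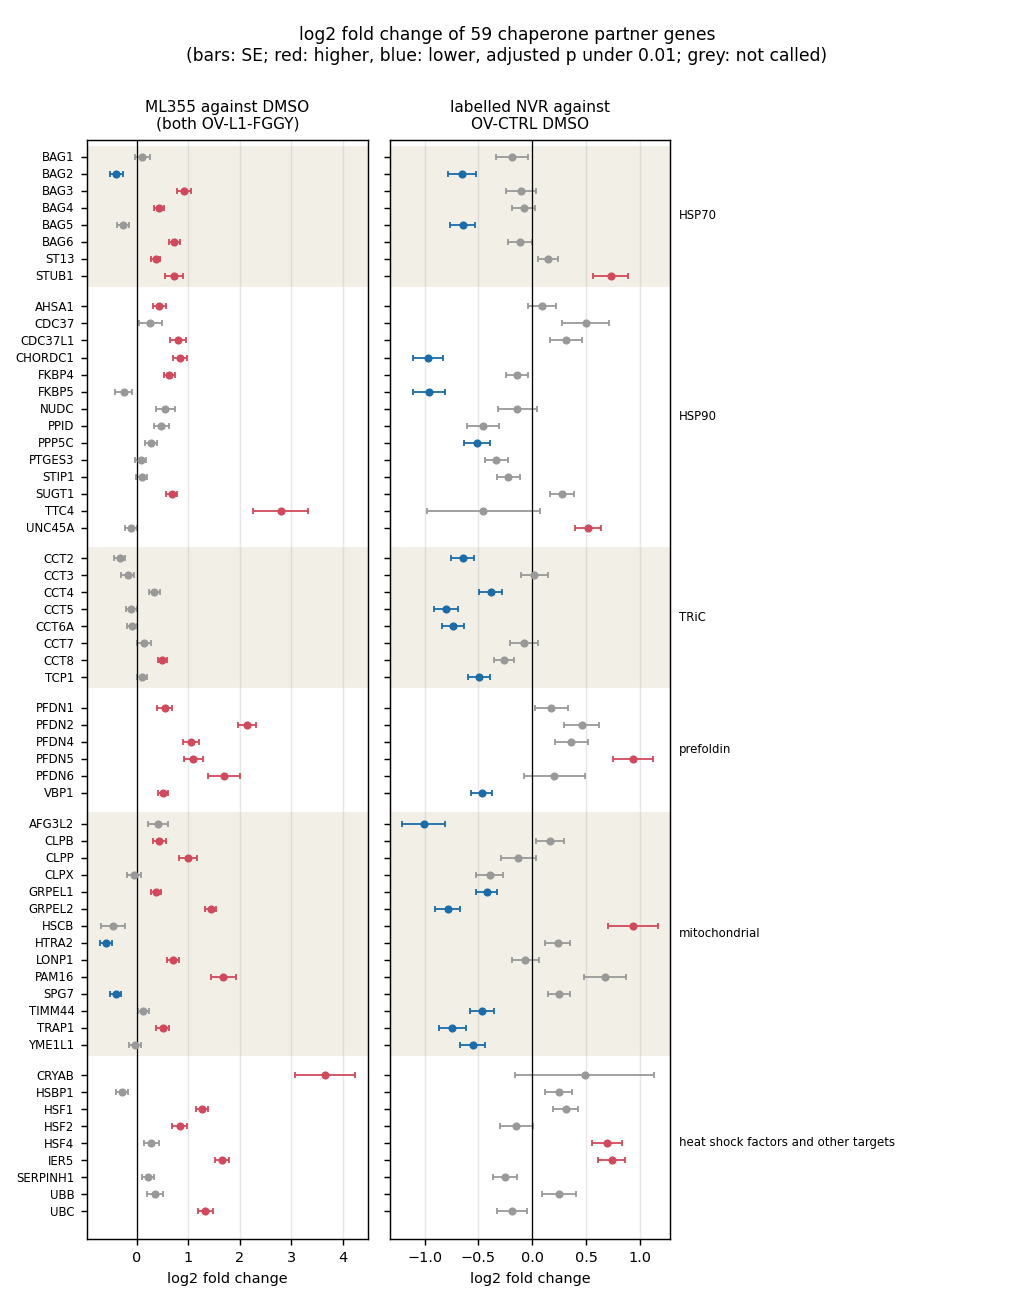
Log2 fold change with standard error of the 59 partner genes tested, in 6 lists, with ML355 against OV-L1-FGGY DMSO and the NVR-labelled libraries against OV-CTRL. Red points (higher) and blue points (lower) are called at an adjusted p under 0.01 and grey points are not, and the 6 prefoldin genes all lie above 0 with ML355.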

How the data were processed

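Per the submitters' processing notes, reads were aligned to hg38 (STAR 2.5.3a) and counted over Ensembl genes (HTSeq 0.11.2). The deposited values are these raw counts, which the authors did not normalize. Whether counting used strand, and the annotation release, are not given in the sources used here. The labels name an Illumina TruSeq kit. Of 58302 identifiers, 57532 were matched to GENCODE 44, from which symbols, gene types, coordinates and exon lengths were taken. The columns of the NVR-labelled libraries and of OV-CTRL carry no cell line prefix and were assigned because no other label had their names.

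Genes were filtered with filterByExpr, which kept 17849, scaled by TMM and tested in edgeR 4.0.16 (R 4.3.3) by the robust quasi-likelihood test over 4 group means, with Benjamini-Hochberg adjusted p under 0.01 over all genes tested. The common biological coefficient of variation was 0.143. Fold changes against a group at or under 3 counts per library are lower bounds. Members, partner lists and marker lists were chosen with earlier results of these data known. Genes named are the core chaperones and up to 5 members in each direction per comparison (ranked by log2 fold change among members called, averaging at least 1 CPM, without overlap between groups). Partners named were picked from the 2 per list and comparison with the smallest adjusted p. Others so ranked, such as CHORDC1 and TRAP1, are not described, and the HSP90 partners enter only the total. DNAJC28, HSPB8, HSPA4, HSPA4L, HSPA13, TRiC and prefoldin counts and the genes called in both comparisons were named beside these after their values were seen. The scripts were tested on simulated data. Alternatives were DESeq2 1.42.0, voom (limma 3.58.1), other scalings and filters, a fit of 2 groups, a replicate block, each library left out, and HSPA1A and HSPA1B counts added. Promoter windows came from RefSeq tables, where 63 of 71 members had 1.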

Additional observations from a re-analysis of the deposited data

Results flagged for a closer look

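In 5 members called in both comparisons that share no library, the directions were opposite. An interaction term in edgeR's quasi-likelihood fit called the difference between the effects (that of the NVR-labelled libraries against OV-CTRL minus that of ML355 against OV-L1-FGGY DMSO, log2 scale). As these members were picked for 2 opposite calls, a called difference was close to given and adds little to those calls. Of all 2672 genes called in both, 35.4% were opposite. The ML355 calls of HSPA9 and HSP90AB1 and the NVR-labelled call of HSPA8 were lost under scaling by total counts. The differences were -1.18 for HSPA9 (adjusted p = 3.03e-05), -1.32 for DNAJA3 (adjusted p = 4.60e-06), -0.99 for HSP90AB1 (adjusted p = 1.38e-04), -1.70 for DNAJC2 (adjusted p = 1.72e-06) and 1.23 for HSPA8 (adjusted p = 9.86e-05). Of the 5, HSPA9 and DNAJA3 form the core of the mitochondrial HSP70 cycle. The inhibitor, its dose and the set of libraries differ together between the effects and cannot be told apart. By their label the NVR-labelled libraries also differ from OV-CTRL in the construct, although their FGGY level goes against that label.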

How the results depend on the processing

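Of the values of single genes recomputed under each alternative, 3047 kept their direction and their side of the threshold, 64 lost a call, 18 gained one and 20 changed sign, all 20 without a call. The sums have no test and no count model, the smallest library had 16242082 counts, and genes below 1 CPM rest on few reads. Where a call was lost with 1 library left out, the fit had fewer libraries, and otherwise the cause was not tested.

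The number of members higher in the NVR-labelled libraries than in OV-CTRL was 10 and ranged from 6 to 8 with 1 library left out. It was 6 without OV-CTRL replicate 2 or 3. For the summed cytosolic level, the ratio of the NVR-labelled libraries to OV-CTRL was 1.02 with DESeq2's size factors, 0.883 by total counts and 1.12 without the most abundant member. It was 0.710 by total counts against OV-L1-FGGY DMSO, and OV-L1-FGGY to OV-CTRL gave 1.24 and 1.28 by total counts and without that member. For the mitochondrial sum by total counts and without the most abundant member, the ratios were 1.24 and 1.29 with ML355, 0.647 and 0.658 for the NVR-labelled libraries against OV-CTRL, 0.555 and 0.486 for those against OV-L1-FGGY DMSO (0.694 with size factors), and 1.17 and 1.35 for OV-L1-FGGY against OV-CTRL.

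Values near 0 changed sign as follows, with leave-one-out ranges. In the NVR-labelled libraries against OV-CTRL, total counts gave -0.070 for DNAJA1 and -0.12 for DNAJB1, and the ranges were -0.0056 to 0.084 for DNAJB1 and -0.084 to 0.42 for HSPE1. Against OV-L1-FGGY DMSO, total counts gave -0.23 for HSP90AA1 and -0.11 for HSPA1A, and the ranges were -0.075 to 0.076 for HSP90AA1, -0.026 to 0.28 for HSPA1A and -0.082 to 0.0087 for HSPD1. HSPD1 was there at 0.097 with at least 10 counts in every library, 0.052 with DESeq2 and with its size factors, 0.012 without a filter and 0.014 with 2 groups. The difference between the effects ranged from -0.19 to 0.40 for HSPB1 and from -0.16 to 0.037 for HSPH1.

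Replicate numbers are shared by the groups, but libraries of 1 number did not deviate together (correlations of -0.354 to 0.173). With the replicate block, 18 members were higher and 16 lower with ML355. In the NVR-labelled libraries 10 were higher and 12 lower than in OV-CTRL, and in OV-L1-FGGY 30 and 12. Without the block, 21.3%, 14.5% and 32.5% of all genes were higher and 23.5%, 15.3% and 36.2% lower in these comparisons.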

Other observations

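CRYAB, a small heat shock protein whose symbol the naming rule leaves out, was named after its values were seen. It stood at 0.459, 0.368 and 0.202 CPM in OV-L1-FGGY DMSO and 5.42, 1.24 and 6.31 CPM with ML355 (log2 fold change 3.65, standard error 0.59, edgeR adjusted p = 6.72e-05), so that its lowest ML355 library was replicate 2, as for HSPA1A, HSPA1B and HSPA6. In the NVR-labelled libraries it was at 0.200, 0.741 and 0.658 CPM against 0.505, 0.313 and 0.345 CPM in OV-CTRL (0.49, adjusted p = 0.567), groups that overlap.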
